A study of Mus musculus with 5 samples.

Results

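Mesothelin and the membrane-spanning mucins were followed as 4 genes, Msln, Muc1, Muc4 and Muc16, taken by their symbols from a deposited expression table of 55276 rows. All 4 symbols had a row. The members were chosen by their TPM values in the tumor and lung libraries, so their own contrast is given as a description without a test. RNA was sequenced from cells labelled PMN-MDSC, the polymorphonuclear myeloid-derived suppressor cells, which belong to the neutrophil lineage and dampen T cells in tumor-bearing hosts. The tumor group held 2 libraries, numbered 2 and 3, and the lung group held 3 libraries, numbered 1, 2 and 3. All 5 came from mouse primary cells of genotype WT, with at least 2000000 sorted cells and 20 M paired reads per library as labelled. The tumor model, the strain, the age, the sort markers and whether libraries came from separate animals were not stated in the labels or design text. The series title places the samples in a study of galectin-1, STING activity in tumors and the attraction of these cells during metastasis.

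Mesothelin is a surface glycoprotein held in the membrane by a glycosylphosphatidylinositol (GPI) anchor. It is made as a precursor that furin-type convertases cut into a released factor and the anchored protein, it is found on mesothelial linings, and many carcinomas carry it. Muc1, Muc4 and Muc16 span the membrane and hold long, heavily O-glycosylated outer domains above epithelial surfaces. In humans, MUC16 carries the CA125 antigen and binds mesothelin, MUC1 has a cytoplasmic tail that binds beta-catenin and Src-family kinases, and in rats Muc4 binds the receptor ErbB2.

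The genes lie on separate chromosomes of the GRCm38 mouse genome by the GENCODE M21 annotation. Msln spans chr17:25748613-25754378 on the minus strand and Muc1 spans chr3:89229057-89233381 on the plus strand. Muc4 spans chr16:32735886-32782391 on the plus strand and Muc16 spans chr9:18495455-18674530 on the minus strand. The 250 bases before the RefSeq start are shown for the mucins to set the start of Muc1, which was well expressed in tumor libraries, beside those of Muc4 and Muc16, which were not. They are RefSeq sequences on GRCm38.p6, at chr3:89228806-89229055 (plus) for Muc1, chr16:32735636-32735885 (plus) for Muc4 and chr9:18674604-18674853 (minus) for Muc16, written 5′ to 3′ with the matched motifs in capitals. RefSeq and GENCODE starts can differ, and the RefSeq start of Muc16 lies outside the GENCODE span above. Msln is named only.
Muc1: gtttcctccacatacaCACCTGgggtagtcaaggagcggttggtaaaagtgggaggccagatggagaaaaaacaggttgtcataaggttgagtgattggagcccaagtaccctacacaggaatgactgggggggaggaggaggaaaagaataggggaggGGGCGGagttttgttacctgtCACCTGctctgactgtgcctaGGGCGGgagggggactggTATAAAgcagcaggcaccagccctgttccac
Muc4: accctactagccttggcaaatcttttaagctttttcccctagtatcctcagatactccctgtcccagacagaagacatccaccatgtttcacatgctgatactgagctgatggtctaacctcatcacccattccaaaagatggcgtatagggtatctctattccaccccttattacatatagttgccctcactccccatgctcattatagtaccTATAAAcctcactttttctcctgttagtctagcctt
Muc16: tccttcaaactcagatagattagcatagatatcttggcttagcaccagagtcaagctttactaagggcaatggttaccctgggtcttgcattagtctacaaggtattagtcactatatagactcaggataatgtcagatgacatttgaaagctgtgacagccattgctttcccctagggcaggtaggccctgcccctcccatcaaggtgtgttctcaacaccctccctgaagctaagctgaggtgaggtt
Motifs were sought as exact letters on both strands. They were the TATA box TATAAA, the GC box GGGCGG bound by Sp1-type factors, the E-box CACCTG bound by Snail and Zeb repressors, and the STAT-type element TTCNNNGAA. Positions count back from -1 at the base before the start, and no matches overlapped. Muc1 held TATAAA from -31, GGGCGG from -91 and from -49, and CACCTG from -234 and from -70. Muc4 held TATAAA from -36, and Muc16 held none of the 4 motifs. These motifs are common in windows of this length. Among 32851 mouse promoters, 12.4% held TATAAA and 32.7% held GGGCGG. The E-box was in 17.2% of them and the STAT-type element in 7.02%. The GC content was 54.8% for Muc1, 43.6% for Muc4 and 46.4% for Muc16, against a median of 52.4% over all these promoters. The matches describe letters in the windows and show no binding.

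Values were TPM, a measure of transcript abundance that corrects for length and is scaled to 1 common total per library, so levels can be set beside each other between genes. TPM keeps no read counts, and the depth behind a value is unknown. Between 13693 and 14309 genes reached 1 TPM in tumor libraries, and between 14545 and 15546 did in lung libraries. Mitochondrially encoded genes held 9.01% and 15.1% of TPM in tumor libraries, against 2.67% to 4.40% in lung libraries. Over the 16387 genes whose mean reached 1 TPM, limma called 31.6% higher and 27.0% lower in tumor, where a call needed 1.5-fold and a false discovery rate under 0.05 by the Benjamini-Hochberg method. The filter used the mean over all libraries. A gene near 0 in 1 group was therefore tested only when it was high enough in the other. Differences are given on the log2(TPM + 1) scale, tumor minus lung, which understates changes of low genes, and their median over all tested genes was 0.02. Since separate animals are not stated, the p-values weigh differences against library spread alone, and that spread may be technical.

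The label of the cells was set against cell type markers. The summed level of 16 leukocyte and neutrophil genes was 1695 and 5231 TPM in tumor libraries, against 54234, 61825 and 42034 TPM in lung libraries. All 16 were called lower in tumor, against 27.0% of all tested genes, with a median difference of -3.66. Ptprc, the pan-leukocyte antigen CD45, stood at 18.5 and 75.3 TPM in tumor libraries, against 842, 926 and 959 TPM in lung libraries. The summed level of 20 epithelial genes was 6096 and 6170 TPM in tumor libraries, against 178, 126 and 120 TPM in lung libraries. All 19 tested epithelial genes were called higher, against 31.6% of all tested genes, with a median difference of 4.56. The tumor libraries thus go against their label by these markers, with epithelial transcripts high and leukocyte transcripts low. The part that these markers play in the values of the 4 members was not tested. In bulk samples such as these, a smaller number of cells of a type and less RNA per cell cannot be told apart.

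**Figure D1:**
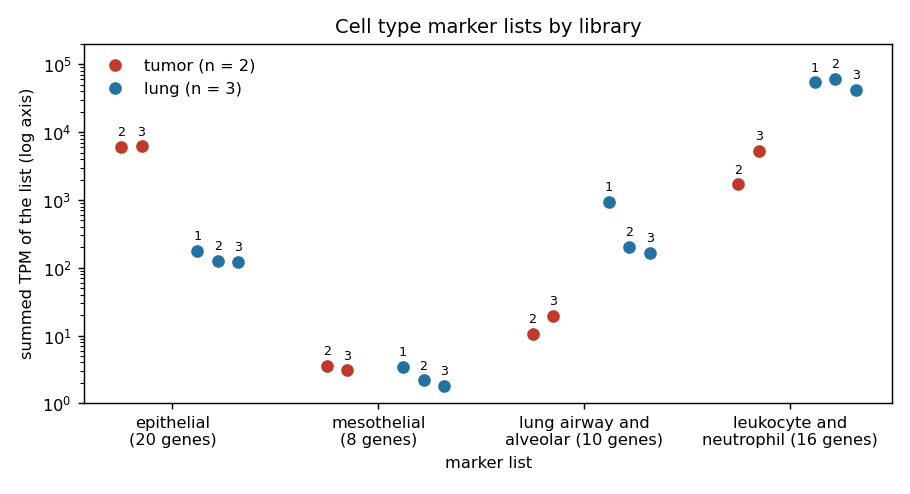
Summed TPM (log axis) of 4 cell type marker lists in each tumor library and each lung library, with the library number beside each point. Epithelial sums were 6096 and 6170 TPM in tumor libraries and at most 178 TPM in lung libraries, whereas leukocyte sums were at most 5231 TPM in tumor libraries and at least 42034 TPM in lung libraries.

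Mesothelin was an abundant transcript of the tumor libraries and a scarce one of the lung libraries. Msln stood at 428 and 387 TPM in tumor libraries 2 and 3, against 3.88, 2.84 and 0.609 TPM in lung libraries 1, 2 and 3. The groups did not overlap, and the lower tumor library was 99.8-fold above the highest lung library. Means were 407.4 ± 28.7 TPM in tumor (SD, n = 2) and 2.44 ± 1.67 TPM in lung (SD, n = 3), a ratio of 167 and a log2 difference of 7.03. Ranked among genes above 0, Msln was number 250 of 25808 and number 256 of 26918 in tumor libraries 2 and 3, above 99.0% of the genes in each. In lung libraries it was number 10319 of 27133 in library 1, 11013 of 26878 in library 2 and 17544 of 28316 in library 3. Tumor libraries differed from each other by 1.10-fold and lung libraries by up to 6.37-fold.

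Muc1, the mucin of most simple epithelia, was the most abundant of the 3 mucins. Its level was 28.8 and 31.4 TPM in tumor libraries 2 and 3, against 5.94, 1.36 and 2.19 TPM in lung libraries 1, 2 and 3. Every tumor library lay above every lung library in TPM, the lower one 4.85-fold above lung library 1, although the order turned round when the level was divided by epithelial transcripts, as given further on. Means were 30.1 ± 1.79 TPM in tumor (SD, n = 2) and 3.16 ± 2.44 TPM in lung (SD, n = 3), a ratio of 9.51 and a log2 difference of 3.05. Without lung library 1 the lung mean was 1.77 TPM and the ratio 17.0. Tumor libraries differed by 1.09-fold from each other and lung libraries by up to 4.36-fold.

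Muc4 and Muc16, the longest members, stayed near or below 1 TPM in all 5 libraries. Muc4 stood at 0.355 and 1.14 TPM in tumor libraries 2 and 3, against 0.581, 1.29 and 0.124 TPM in lung libraries 1, 2 and 3. The groups overlapped, with the highest value in lung library 2 and the lowest in lung library 3. Mean Muc4 was 0.749 ± 0.557 TPM in tumor (SD, n = 2) and 0.664 ± 0.587 TPM in lung (SD, n = 3), a log2 difference of 0.09, smaller than the spread within either group. Leaving out tumor library 3 gave -0.24 and leaving out lung library 3 gave -0.16, so the sign rests on single libraries.

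Muc16 stood at 0.467 and 0.656 TPM in tumor libraries 2 and 3, against 0.522, 0.00692 and 0.0769 TPM in lung libraries 1, 2 and 3. Lung library 1 fell between the tumor libraries, and the other two lung libraries lay far below them. Means were 0.561 ± 0.134 TPM in tumor (SD, n = 2) and 0.202 ± 0.279 TPM in lung (SD, n = 3), a ratio of 2.78 that rests on where the low lung values fall. Without lung library 1 the ratio was 13.4 and the log2 difference 0.58, and without lung library 2 they were 1.87 and 0.28, against a log2 difference of 0.40 over all 5 libraries. Annotated coding transcripts run from 1035 to 25437 bases for Muc16 and from 1190 to 11277 bases for Muc4. A TPM of these genes therefore depends on which transcript received the reads. For Msln the range is narrow, 2044 to 2165 bases, and Muc1 has 1 coding transcript of 2242 bases.

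Of the 4 members, 2 had both tumor libraries above all lung libraries, Msln and Muc1, and the same 2 had a mean of at least 1 TPM. Among all tested genes, 39.9% had both tumor libraries above all lung libraries and 35.7% had both below. Nothing is read from the members' count, since this contrast was in view when they were chosen.

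**Figure D2:**
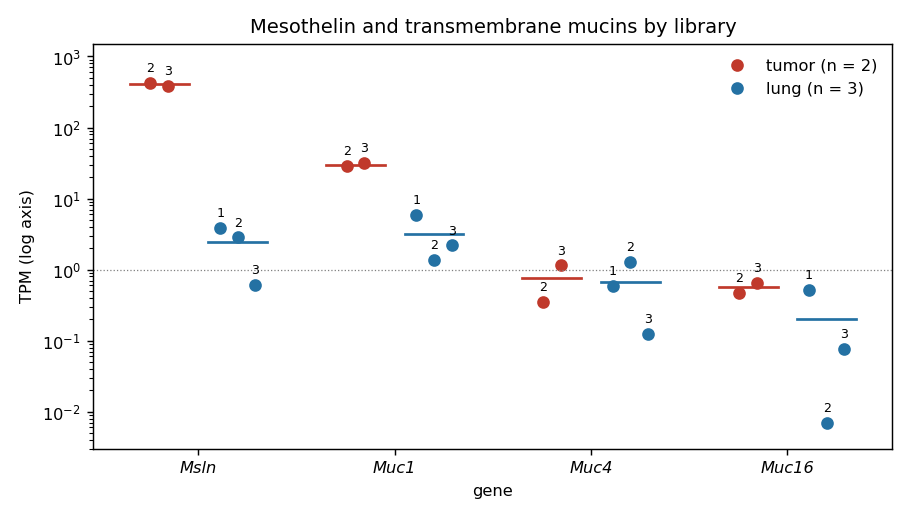
TPM (log axis) of Msln, Muc1, Muc4 and Muc16 in each tumor library and each lung library, with the library number beside each point, lines at group means and a dotted line at 1 TPM. Msln separated the groups by 99.8-fold and Muc1 by 4.85-fold between the nearest libraries, whereas Muc4 and Muc16 overlapped between groups; against epithelial transcripts the order of Muc1 turned round.

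The balance among the members also differed between groups. Msln made up 93.5% and 92.1% of the members' summed TPM in tumor libraries 2 and 3, against 35.5%, 51.7% and 20.3% in lung libraries 1, 2 and 3. The ratio of Msln to Muc1 was 14.8 and 12.3 in tumor libraries, against 0.653, 2.09 and 0.279 in lung libraries. Tumor libraries therefore held more than 12 times as much Msln as Muc1 per length, whereas in lung libraries 1 and 3 Muc1 was the higher of the pair. Muc1 exceeded Muc4 by 81.2-fold and 27.4-fold in tumor libraries, against 10.2-fold, 1.06-fold and 17.6-fold in lung libraries. In lung library 2 the levels of Muc1 and Muc4 were thus almost level. The order of Muc4 and Muc16 changed between tumor libraries, with ratios of 0.761 and 1.74, and Muc4 was the higher in each lung library, at 1.11, 186 and 1.61.

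Because epithelial transcripts differed so widely between groups, member levels were also divided by the summed epithelial list. Msln was 70.2 and 62.7 per 1000 TPM of the list in tumor libraries 2 and 3, against 21.8, 22.6 and 5.07 in lung libraries 1, 2 and 3. It remained higher in tumor by this measure, without overlap. Muc1 was 4.73 and 5.08 per 1000 in tumor libraries, against 33.3, 10.9 and 18.2 in lung libraries. Its order was thus the reverse of that in TPM, with every tumor library below every lung library. Muc4 was 0.0583 and 0.185 per 1000 in tumor libraries, against 3.26, 10.3 and 1.03 in lung libraries. Muc16 was 0.0766 and 0.106 per 1000 in tumor libraries, against 2.93, 0.0551 and 0.640 in lung libraries. Muc4 lay below all lung libraries in both tumor libraries, and Muc16 overlapped through lung library 2. Since the list sum was far higher in tumor libraries, any gene of like TPM in both groups comes out lower in tumor by this measure. The order of Muc4, which overlapped in TPM, therefore comes from the divisor.

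The choice of epithelial measure mattered for Muc1. Keratins, the filament proteins of epithelia, held 76.3% and 75.3% of the list's TPM in tumor libraries, against 47.7%, 39.6% and 38.9% in lung libraries. Without the 4 keratins, Muc1 stood at 19.9 and 20.6 per 1000 TPM in tumor libraries, against 63.7, 18.0 and 29.8 in lung libraries, and the groups overlapped at lung library 2. Msln stood at 296 and 254 per 1000 in tumor libraries, against 41.6, 37.5 and 8.30 in lung libraries, still without overlap. Epcam alone, an epithelial adhesion molecule, was 257 and 248 TPM in tumor libraries, against 5.44, 2.10 and 2.95 TPM in lung libraries. Per TPM of Epcam, Msln was 1.67 and 1.56 in tumor libraries, against 0.714, 1.35 and 0.206 in lung libraries, so lung library 2 came close to the tumor libraries. Muc1 was 0.112 and 0.126 per TPM of Epcam in tumor libraries, against 1.09, 0.648 and 0.741 in lung libraries. The higher Msln in tumor thus kept its direction under these 3 measures. Muc1 was lower in tumor under 2 of them and overlapping under the other. Within the list, Cldn4, Krt7 and Krt8 differed more than Msln, with log2 differences of 7.22, 7.41 and 7.48 against 7.03. The other genes of the list differed less than Msln. The direction of Msln therefore depends on the epithelial genes chosen, and single genes other than Epcam were not used as a measure.

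**Figure D3:**
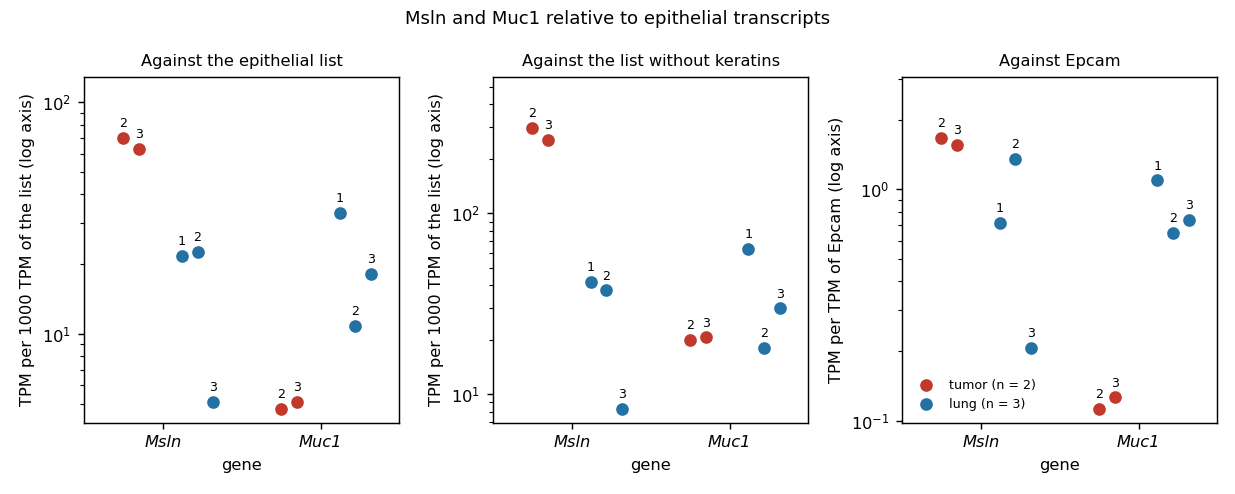
Msln and Muc1 in each tumor library and each lung library, per 1000 TPM of the epithelial list (left), per 1000 TPM of that list without keratins (middle) and per TPM of Epcam (right), all on log axes with the library number beside each point. Msln was higher in both tumor libraries in each panel, at 1.67 and 1.56 per TPM of Epcam against at most 1.35 in lung libraries, whereas Muc1 was lower in tumor on the left and right and overlapped in the middle.

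Mesothelial cells line the lung and body cavities and are the normal home of mesothelin, so their other markers were read beside Msln. The 8 mesothelial genes together held 3.59 and 3.05 TPM in tumor libraries, against 3.46, 2.18 and 1.82 TPM in lung libraries. Bnc1 made up most of the tumor sums. The other 7 genes summed to 0.112 and 0.649 TPM in tumor libraries, against 3.45, 2.15 and 1.82 TPM in lung libraries. Of them, 6 lay lower in both tumor libraries than in any lung library. The same held for 35.7% of all tested genes, a pool that left out these 7 low genes. These 7 each stayed below 1 TPM in every library: Wt1, Upk3b, Upk1b, Lrrn4, Gpm6a, Calb2 and Rspo1. In tumor libraries 2 and 3, 3 and 2 of the 8 were listed at 0, among them Upk1b and Calb2 in both. Wt1, the transcription factor that marks mesothelium, was listed at 0 in tumor library 2 and stood at 0.413 TPM in tumor library 3, against 0.860, 0.998 and 0.579 TPM in lung libraries. The remaining gene, Bnc1, a zinc finger protein also found in stratified epithelia, stood at 3.48 and 2.40 TPM in tumor libraries, against 0.0102, 0.0233 and 0 TPM in lung libraries. It was called higher in tumor by limma, with a difference of 1.95 ± 0.31 (SE) and an adjusted p of 0.00514. Without either tumor library its mean fell below 1 TPM and it was not tested.

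In lung, airway and alveolar epithelium can also carry Msln, Muc1, Muc4 and Muc16. The 10 airway and alveolar genes summed to 10.6 and 19.6 TPM in tumor libraries, against 923, 204 and 166 TPM in lung libraries. Of these, 8 were called lower in tumor, 1 (Foxj1) higher and 1 (Sftpd) neither. Over all tested genes, 27.0% were called lower and 31.6% higher. The call of Foxj1 was lost without tumor library 2 or 3 or lung library 2 or 3, and Sftpd was called higher without lung library 1. Without tumor library 2 or tumor library 3 the calls of lower genes numbered 4 and 5. The club cell secretoglobin Scgb1a1 stood at 0 and 0.431 TPM in tumor libraries, against 302, 72.0 and 61.7 TPM in lung libraries. Lung library 1, with the largest airway sum of the lung libraries, also had the largest Msln, Muc1 and Muc16 of them, while its Muc4 lay between the other two. Lung library 1 also had the largest epithelial sum, at 178 TPM against 126 and 120 TPM in lung libraries 2 and 3. Its sum of the 7 mesothelial genes without Bnc1 was the largest too, at 3.45 TPM against 2.15 and 1.82 TPM. Whether airway, other epithelial or mesothelial RNA accounts for the member values was not tested.

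Among the relatives of mesothelin, only stereocilin was expressed above 1 TPM. Strc, a large protein of inner ear hair bundles, stood at 5.89 and 6.00 TPM in tumor libraries, against 0.0772, 0.0375 and 0.115 TPM in lung libraries. Its difference was 2.69 ± 0.25 (SE), with a limma adjusted p of 0.00154. Strc passed the filter only through its tumor values, so its call cannot be taken apart from the filter. Mslnl, the mesothelin-like gene, stood at 0.186 and 0.316 TPM in tumor libraries, against 0.0190, 0 and 0.0378 TPM in lung libraries. Otoa, otoancorin of the inner ear, stood at 0.0397 and 0.0845 TPM in tumor libraries, against 0.144, 0.127 and 0.503 TPM in lung libraries. Both were too low to be tested, and of the 3 relatives only Strc was.

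Other membrane mucins and sialomucins were called lower, did not pass the test or were too low for it. Of 10 listed genes 8 had a row and 3 could be tested, with 1 called lower, the other two not passing and a median difference of -0.23. Cd164, a sialomucin of blood progenitors, stood at 80.0 and 89.0 TPM in tumor libraries, against 89.9, 105 and 104 TPM in lung libraries, with a difference of -0.23 and a limma adjusted p of 0.24. Podxl, podocalyxin of podocytes and endothelium, stood at 26.5 and 34.9 TPM in tumor libraries, against 30.2, 22.1 and 25.6 TPM in lung libraries, with an adjusted p of 0.392 by limma. Neither passed the test. Emcn, the endothelial mucin endomucin, was lower at 0.586 and 0.680 TPM in tumor libraries, against 5.26, 1.88 and 2.91 TPM in lung libraries, with a difference of -1.34 ± 0.39 (SE) and a limma adjusted p of 0.0342. That call was lost without tumor library 2, tumor library 3, lung library 1 or lung library 3, with limma adjusted p-values of 0.149, 0.117, 0.0629 and 0.0777. Muc13, an intestinal membrane mucin, stood at 0.658 and 1.97 TPM in tumor libraries, against 0.151, 0.0192 and 0.0334 TPM in lung libraries, and its mean was too low for a test. Both tumor libraries lay above all lung libraries for Muc13 and for Muc20, and Muc3, Muc3a, Muc15 and Muc20 stayed below 1 TPM throughout.

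Secreted mucins and their goblet cell partners were near absent from tumor libraries, and most were low in lung libraries too. Of 12 genes, all with a row, none reached 1 TPM in a tumor library. In lung library 1, 3 of them did, and in lung libraries 2 and 3, 2 did. Of the 12, 2 could be tested, of which 1 was called lower. Only Muc2 had both tumor libraries above all lung libraries, at 0.219 and 0.218 TPM against 0.0337, 0.0579 and 0.0504 TPM. Tff2, a trefoil peptide secreted with mucus, was listed at 0 in both tumor libraries and stood at 8.76, 2.93 and 1.07 TPM in lung libraries, so it passed the filter only through lung. Its difference was -2.10 ± 0.69 (SE), with a limma adjusted p of 0.0475. The call was lost without tumor library 2, tumor library 3 or lung library 2, with limma adjusted p-values of 0.193, 0.173 and 0.106, and without lung library 1 its mean was below the filter. Clca1, a goblet cell product, stood at 0.772 and 0.192 TPM in tumor libraries, against 3.09, 1.63 and 0.356 TPM in lung libraries, and did not pass the test with a limma adjusted p of 0.292. Muc5b, the main gel-forming mucin of mouse airways, stood at 0.0237 and 0.0422 TPM in tumor libraries, against 2.38, 0.757 and 0.940 TPM in lung libraries. Its mean was below 1 TPM, so it was not tested, although the groups did not overlap. Tff1 was listed at 0 in both tumor libraries and stood at 0.0995, 0 and 1.44 TPM in lung libraries.

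Outer domains of mucins are built up by enzymes that add and extend O-linked sugars. Of 24 genes of mucin-type O-glycan synthesis, 19 were tested, of which 11 were called higher, 3 lower and 5 neither. Over all tested genes, 31.6% were called higher and 27.0% lower. The median difference was 0.82, beside 0.02 over all genes. Without tumor library 2 the calls were 6 higher and 1 lower, and without tumor library 3 there was 1 lower. Galnt1 and Galnt2 start the chain by adding the first sugar to serine or threonine. Galnt1 stood at 148 and 116 TPM in tumor libraries, against 34.2, 26.6 and 32.3 TPM in lung libraries, with a difference of 2.05 ± 0.20 (SE) and a limma adjusted p of 0.00161. Galnt2 stood at 73.0 and 63.8 TPM in tumor libraries, against 9.16, 5.77 and 6.55 TPM in lung libraries, with a difference of 3.11 ± 0.23 (SE) and a limma adjusted p of 0.00117. Both were higher in every tumor library than in every lung library. B3gnt3, which extends core 1 glycans, stood at 70.8 and 60.9 TPM in tumor libraries, against 4.20, 2.85 and 2.79 TPM in lung libraries, a difference of 3.98 ± 0.22 (SE) with a limma adjusted p of 0.000901. St6galnac2, a sialyltransferase that caps short glycans, stood at 18.7 and 21.4 TPM in tumor libraries, against 2.32, 1.10 and 0.766 TPM in lung libraries, a difference of 3.19 ± 0.32 (SE) with a limma adjusted p of 0.00175.

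The 3 genes called lower were Galnt6, Gcnt1 and St6galnac4, the last of which lost its call when any 1 of the 5 libraries was left out. Galnt6, another starting enzyme, stood at 2.94 and 9.86 TPM in tumor libraries, against 42.1, 47.2 and 52.2 TPM in lung libraries, a difference of -2.87 ± 0.45 (SE) with a limma adjusted p of 0.00495. Gcnt1, which makes the core 2 branch that leukocytes use for selectin ligands, stood at 14.9 and 15.3 TPM in tumor libraries, against 34.4, 44.8 and 63.7 TPM in lung libraries, a difference of -1.55 ± 0.28 (SE) with a limma adjusted p of 0.00784. Its call was lost without tumor library 2, with a limma adjusted p of 0.0648, and without tumor library 3, with 0.05. The starting enzymes thus included members called in each direction.

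Mesothelin needs a GPI anchor, which the endoplasmic reticulum builds stepwise and a transamidase attaches. Of 27 genes of GPI synthesis and transfer, 26 had a row and were tested. Of these, 11 were called higher, 4 lower and 11 neither, where 31.6% of all tested genes were called higher and 27.0% lower. The median difference was 0.55, beside 0.02 over all tested genes. Without tumor library 2 the calls were 5 higher and 1 lower, and the lower calls numbered 1 without tumor library 3 and 2 without lung library 2 or lung library 3. Pigp, part of the enzyme of the first step, stood at 19.3 and 16.5 TPM in tumor libraries, against 4.05, 3.63 and 4.26 TPM in lung libraries, a difference of 1.92 ± 0.17 (SE) with a limma adjusted p of 0.00149. Pigw, which acylates the inositol, stood at 4.15 and 3.05 TPM in tumor libraries, against 0.391, 0.419 and 0.395 TPM in lung libraries, a difference of 1.70 ± 0.27 (SE) with a limma adjusted p of 0.00502. Both were higher in each tumor library than in any lung library, and Pigw passed the filter only through its tumor values. Pigt, a transamidase subunit, stood at 61.8 and 52.5 TPM in tumor libraries, against 26.6, 20.4 and 29.7 TPM in lung libraries, a difference of 1.14 ± 0.21 (SE) with a limma adjusted p of 0.00844, which became 0.064 without tumor library 2. Pigb, which adds the third mannose, ran the other way at 3.60 and 6.01 TPM in tumor libraries, against 26.2, 43.0 and 45.4 TPM in lung libraries, a difference of -2.75 ± 0.33 (SE) with a limma adjusted p of 0.00244. The other genes called lower were Pigm, Pigv and Pgap2.

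The proteases that cut mesothelin and the mucins from their precursors or from the cell surface were mixed. Of 10 convertases and sheddases, 8 were tested, of which 4 were called higher, 2 lower and 2 neither. Over all tested genes, 31.6% were called higher and 27.0% lower. The median difference of the list was 1.04, beside 0.02 over all tested genes. Mmp14, a membrane metalloproteinase that can shed human MUC1, stood at 190 and 158 TPM in tumor libraries, against 4.15, 2.48 and 2.20 TPM in lung libraries, a difference of 5.50 ± 0.26 (SE) with a limma adjusted p of 0.000901. The convertase Pcsk6 stood at 20.4 and 29.4 TPM in tumor libraries, against 0.122, 0.156 and 0.245 TPM in lung libraries, a difference of 4.44 ± 0.24 (SE) with a limma adjusted p of 0.000901. Both lay far above every lung library in each tumor library, and Pcsk6 passed the filter only through its tumor values. The membrane proteases Bace1 and Adam9 were also called higher, with differences of 3.79 ± 0.19 and 1.85 ± 0.14 (SE) and limma adjusted p-values of 0.000901 and 0.00119. Furin, the convertase known to process human mesothelin, was lower at 98.7 and 134 TPM in tumor libraries, against 216, 162 and 272 TPM in lung libraries, a difference of -0.87 ± 0.28 (SE) with a limma adjusted p of 0.045. That call was lost without tumor library 2, tumor library 3, lung library 1 or lung library 3, with limma adjusted p-values of 0.228, 0.0767, 0.102 and 0.0957. Without Furin, the lower calls came to 1, the convertase Pcsk7, at 12.4 and 14.2 TPM in tumor libraries, against 33.1, 43.7 and 32.2 TPM in lung libraries. Adam17, a general sheddase of surface proteins, did not pass the test, with a difference of 0.07 and a limma adjusted p of 0.688, and neither did Adam10.

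Binding and signalling partners of the mucins were called in both directions. Of 16 partners, all tested, 7 were called higher, 4 lower and 5 neither, with a median difference of 0.04, where 31.6% of all tested genes were called higher and 27.0% lower. The receptor kinase Erbb2, the partner of rat Muc4, stood at 28.9 and 31.9 TPM in tumor libraries, against 0.975, 0.742 and 0.560 TPM in lung libraries, a difference of 4.16 ± 0.20 (SE) with a limma adjusted p of 0.000901. The kinase Src stood at 84.9 and 73.0 TPM in tumor libraries, against 1.94, 0.850 and 0.913 TPM in lung libraries, a difference of 5.19 ± 0.27 (SE) with a limma adjusted p of 0.000901. Erbb2 and Src were high in each tumor library, where Muc1 was also high and Muc4 was not. The receptor kinases Met and Erbb3 were called higher as well, with differences of 3.47 ± 0.24 and 3.14 ± 0.23 (SE) and limma adjusted p-values of 0.00108 and 0.00114, as were Egfr and the catenins Jup and Ctnnb1. Of these partners, Erbb2, Erbb3 and Egfr passed the filter only through their tumor values. The 4 called lower were the kinases Lyn and Prkcd, the adaptor Grb2 and the receptor Siglece. Siglece, a sialic acid receptor of mouse neutrophils and macrophages, stood at 4.68 and 22.5 TPM in tumor libraries, against 206, 268 and 259 TPM in lung libraries, a difference of -4.40 ± 0.62 (SE) with a limma adjusted p of 0.0036. Lgals3, galectin-3, which binds sugars on human MUC1, stood at 485 and 486 TPM in tumor libraries, against 552, 520 and 402 TPM in lung libraries, and did not pass the test with a limma adjusted p of 0.989.

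**Figure D4:**
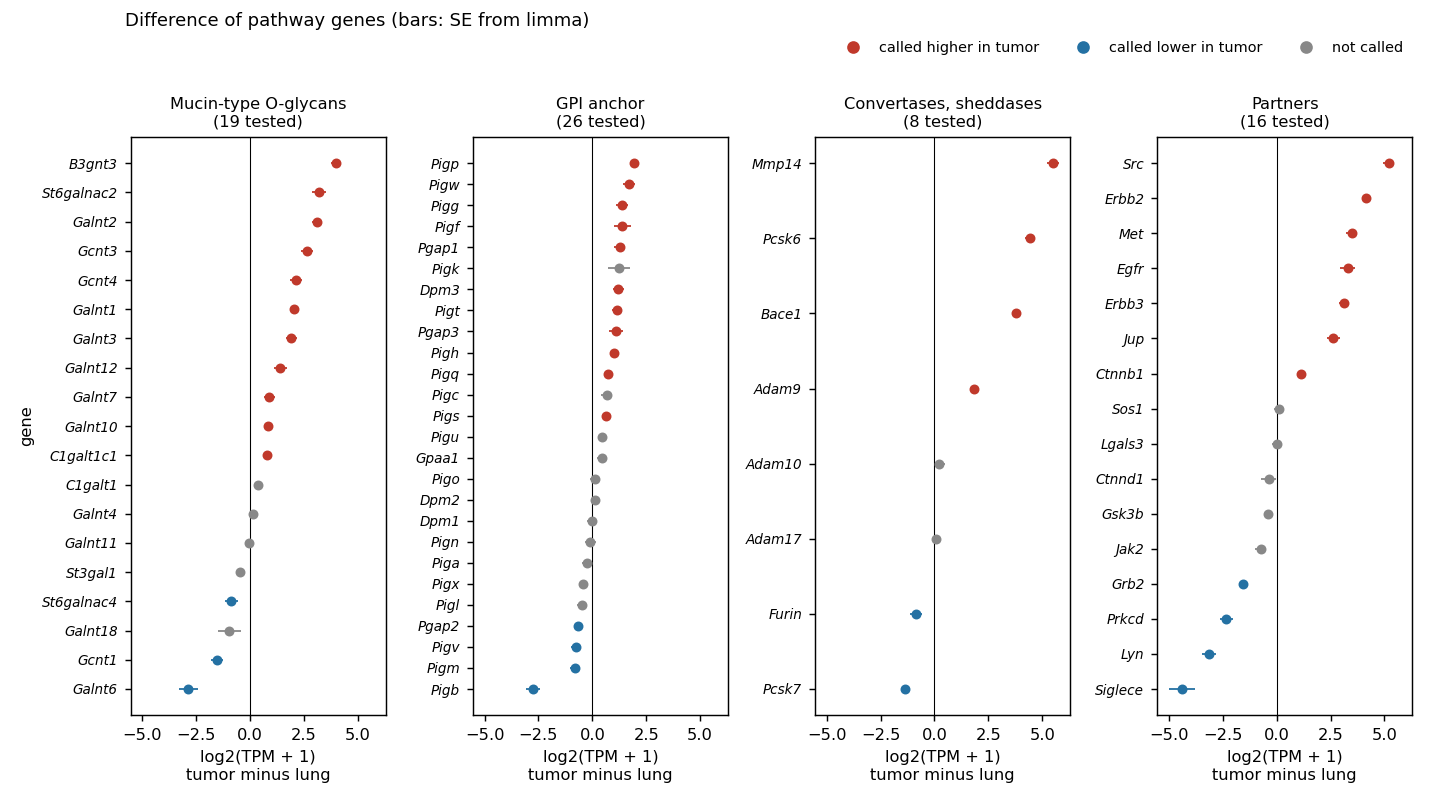
Difference in log2(TPM + 1), tumor minus lung, of the tested genes of 4 lists, with bars for the SE from limma and colours for genes called higher in tumor, called lower in tumor or not called. Called genes stand on both sides of 0 in each panel, from B3gnt3 at 3.98 to Galnt6 at -2.87 among O-glycan genes and from Src at 5.19 to Siglece at -4.40 among partners.

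Genes with the profile closest to each member were found by the Euclidean distance of log2(TPM + 1), centred on each gene's own mean, over the 5 libraries and 12865 other genes for Msln and Muc1, or 12866 for Muc4 and Muc16. A distance of 0 would be an identical profile, and libraries share composition and scaling. Profiles were not scaled, so the distance follows the size of the difference between tumor and lung, the contrast by which the members were chosen. Nearest to Msln were the claudins Cldn6 and Cldn4, at 0.607 and 0.637, and the keratins Krt8 and Krt7, at 0.683 and 0.701. Claudins seal tight junctions and these keratins build the filaments of simple epithelia. Cldn6 stood at 211 and 177 TPM in tumor libraries, against 1.71, 0.751 and 0.217 TPM in lung libraries, an order of libraries equal to that of Msln. Nearest to Muc1 were Tmem176b at 0.203, Znhit6 at 0.340, Mrpl38 at 0.359 and Ppbp at 0.378. Tmem176b, a membrane protein of many cell types, stood at 248 and 287 TPM in tumor libraries, against 51.2, 19.8 and 27.0 TPM in lung libraries, which is the library order of Muc1. None of the 4 nearest genes of Muc1 was a keratin or claudin. Those of the epithelial list differed by 5.07 (Krt19) to 7.48 (Krt8), against 3.05 for Muc1, so this distance could not place them near it. The nearest genes of Muc4 were Grb10, Mfsd12, Impa2 and Slc37a1, at distances from 0.207 to 0.386. Those of Muc16 were Btbd8, Tprn, Cnot8 and Tnfsf12, at distances from 0.119 to 0.172. All 5 values of Muc16 lay between 0.01 and 0.73 on the log2(TPM + 1) scale, and those of Muc4 between 0.17 and 1.19, so their profiles span little of it.

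Neighbours on the chromosome were compared with each member. Mslnl lies 282 bases from Msln on the opposite strand and Haghl lies 25464 bases away on the same strand. Haghl stood at 10.8 and 8.71 TPM in tumor libraries, against 8.72, 6.94 and 7.21 TPM in lung libraries, and did not pass the test with a limma adjusted p of 0.211. Its groups overlapped, whereas the low values of Mslnl, given above, did not. Beside Muc1, Trim46 lies 795 bases away and did not pass, with a limma adjusted p of 0.0861. Mtx1, a mitochondrial import protein 1968 bases away on the opposite strand, stood at 66.0 and 66.1 TPM in tumor libraries, against 20.6, 30.5 and 30.2 TPM in lung libraries, a difference of 1.27 ± 0.22 (SE) with a limma adjusted p of 0.00666, which became 0.0525 without tumor library 2. Beside Muc4, the kinase gene Tnk2, 52392 bases away, stood at 95.6 and 89.7 TPM in tumor libraries, against 38.5, 25.4 and 33.7 TPM in lung libraries, a difference of 1.50 ± 0.22 (SE) with a limma adjusted p of 0.00396. Muc20 overlaps Muc4 by 4973 bases on the other strand, and reads from the shared stretch could go to either gene if strand was not kept. Muc20 stood at 0.255 and 0.637 TPM in tumor libraries, against 0.220, 0.101 and 0.110 TPM in lung libraries. Beside Muc16, Mbd3l1 was listed at 0 in all 5 libraries and Olfr24 did not exceed 0.0330 TPM.

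**Figure D5:**
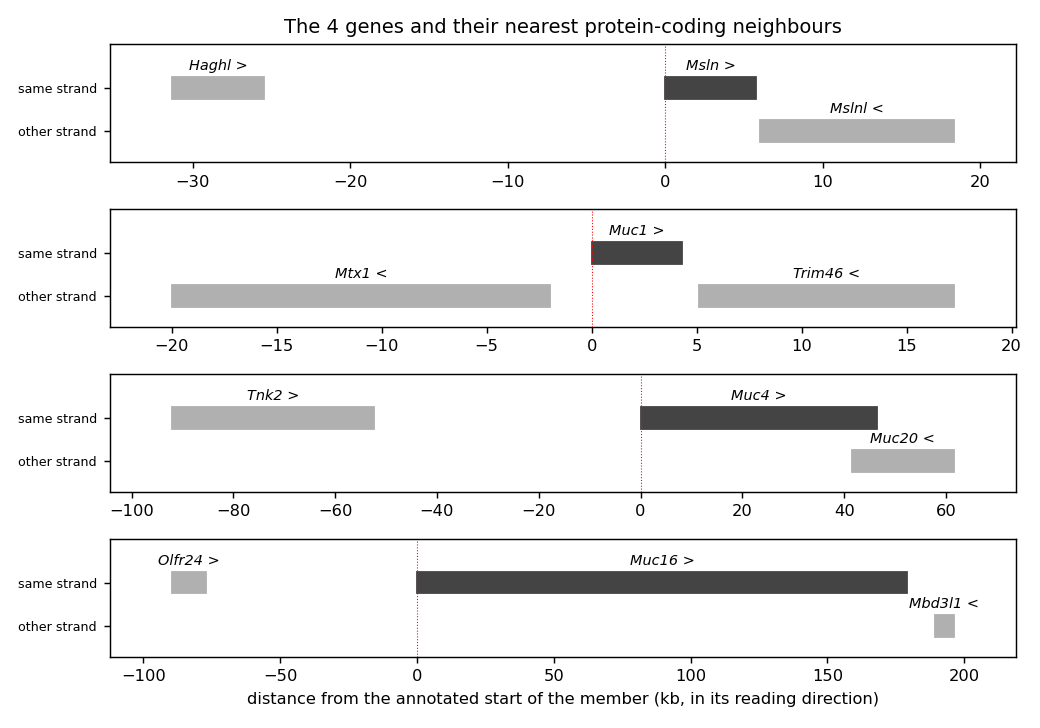
Position of each member (dark) and its nearest protein-coding neighbours with a row in the table (light), as distance in kb from the member's annotated start in its own reading direction, with genes on the same or the other strand in separate lanes. Mslnl lies 282 bases from Msln, and Muc20 overlaps the end of Muc4 by 4973 bases.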

How the data were processed

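RNA of 5 libraries was analysed, grouped by the tissue in the labels and numbered by their titles. Per the design text, the authors ran Salmon 0.9.1 on GENCODE mouse M24 transcripts, with no alignment to the genome, and deposited TPM per gene. TPM is a share of each library, keeps no depth, and rests on modelled sharing of reads between like transcripts. Of 55276 rows, 26 with dates in place of symbols were left out and 20320 were 0 in every library. The authors' comparison columns were not used.

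Differences were fitted with limma 3.58.1 in R 4.3.3 (intensity trend, two-sided) on log2(TPM + 1), with a pseudocount of 1, for the 16387 genes whose mean reached 1 TPM, and called at a Benjamini-Hochberg adjusted p under 0.05 and at least 1.5-fold. The fit was tested on simulated data. No set test was run. The members, lists and tests were chosen with earlier results of these data known. Genes named were the members, genes of the 3 short lists (mesothelin relatives, other membrane mucins, secreted mucins) reaching 1 TPM in any library, up to 4 called genes with the smallest p in each other list, the 4 nearest profiles of each member, and the nearest protein-coding neighbours. Others, such as Ptprc, Epcam, Galnt6, Gcnt1, Furin, Pcsk7, Adam17, Siglece, Lgals3, Wt1, Scgb1a1 and those named to complete a count, were chosen after their values were seen, and some genes of the rule are left out.

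Coordinates were matched by symbol to GENCODE M21 on GRCm38, release M24 not being used here, and 3 of 4 members matched a RefSeq promoter. Alternatives were a pseudocount of 0.1, no filter or 5 TPM, 3 rescalings, no intensity trend, centring on epithelial genes, the title number as a block, and leaving out each library.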

Additional observations from a re-analysis of the deposited data

How the results depend on the processing

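Across all tested genes, leaving out 1 library gave between 3314 and 4817 genes called higher and between 2900 and 4134 called lower, against 5178 and 4431 with all 5, the lowest without tumor library 2. Msln and Muc1 were higher in tumor, in TPM, under every pseudocount, rescaling and left-out library tried, with log2 differences of 6.56 to 7.36 and 2.72 to 3.50 when 1 library was left out. Their groups did not overlap in TPM, so leaving out a library or changing the pseudocount could not turn the sign. Centred on the epithelial list, the differences were 2.75 for Msln, -1.23 for Muc1, -4.19 for Muc4 and -3.89 for Muc16, since the mean over the 20 genes of that list was itself 4.29 higher in tumor. A pseudocount of 0.1 gave Muc16 a difference of 1.52, and a lower pseudocount weighs low values more. With 1 library left out Muc16 ran from 0.28 to 0.58 and Muc4 from -0.24 to 0.43. The median over all genes was 0.18 under median-of-ratios scaling and 0.13 without mitochondrial genes, against 0.02.

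The tumor and lung libraries share only the title numbers 2 and 3, and nothing says that these pair them. With the number as a replicate block, where lung library 1 carries no information on the contrast, 3662 genes were called higher and 3449 lower, and the differences were 7.36 for Msln, 3.50 for Muc1, 0.58 for Muc16 and 0.09 for Muc4. The block left 7 O-glycan genes called higher, and 3 GPI genes higher and 1 lower.

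Among named genes that did not pass the test, the sign turned for Lgals3 under median-of-ratios scaling (0.18), quantile normalization (0.27), rescaling without mitochondrial genes (0.13), the replicate block (0.087) and when 1 library was left out (-0.14 to 0.087), for Cd164 under quantile normalization (0.022) and for Adam17 without tumor library 2 (-0.022 to 0.17 when 1 library was left out). The cause was not tested. With a filter of 5 TPM, 6 GPI genes were called higher, and the others called higher in the main fit had means below that filter and were not tested. The read counts behind the values are unknown, and with 2 and 3 libraries the lowest members cannot be placed.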
